A study of Mus musculus with 3 samples.

Results

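ZBTB genes encode transcription factors that carry a BTB domain at one end and a run of zinc fingers at the other. The set described here held every mouse gene whose symbol is Zbtb followed by a digit, except Zbtb7a, Zbtb7b and Zbtb16 and the names of genes on the opposite strand, Zbtb8os and Zbtb11os1. That left 37 genes of the 50600 in the tables, all of them protein-coding and spread over 15 chromosomes. RNA came from primary T cells of the mouse strain C57BL/6NJ, sequenced in 3 libraries that form 1 group and carry the biological replicate numbers 2, 3 and 4. The labels describe the assay as total RNA-seq, link a poly(A) library protocol and a protocol for differentiating CD4+ T cells, and give no sex, age or stage. The alignment names in the file headers add Th0, activated and 00h, so the labels and headers do not settle how far the cells had been stimulated. No treated or second group was analysed here, and 1 donor identifier covers all libraries, so p-values measure only the spread among these 3 samples. Sex-linked transcripts divided replicate 2 from replicates 3 and 4, as given below, although the donor identifier is the same. Gene counts summed to 47432940 in replicate 2, to 59698913 in replicate 3 and to 28340521 in replicate 4, so that the shallowest library held the least precise values.

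The BTB domain lets these proteins pair with themselves and with each other, and offers a surface to corepressors such as NCOR, SMRT and BCOR and, in some members, to the cullin of a ubiquitin ligase. The zinc fingers bind DNA, and in a few members they read methylated CpG. In T cells the best known members are those the rule left out, such as ThPOK, the product of Zbtb7b, while others act in early lymphocyte development, telomere maintenance, DNA methylation or the control of the cell cycle.

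Of the 37 genes, 28 had an upstream window in the RefSeq promoter table (GRCm38.p6, the same assembly as mm10) whose RefSeq start lay within 1000 bases of the gene's start in the deposited tables, and 250 bases before the RefSeq start were read from each. Some windows thus lie inside the gene as deposited. The RefSeq start was 272 bases inside Zbtb22, 254 inside Zbtb1 and 182 inside Zbtb45. The window of Zbtb22, the gene of highest mean, was not shown for this reason. Those shown have 0 bases inside the gene, except Zbtb9 with 12 and Zbtb17 with 19. The windows of 2 of the 3 genes of highest level (Zbtb4 and Zbtb17), of the X-linked member (Zbtb33), of a gene with a mean below 1 TPM (Zbtb32) and of Zbtb9, whose few counts are not a readable level because of exons shared with another gene, are shown, 5′ to 3′ on the gene's strand, because the results below turn on these genes. Capitals mark matches to the motifs that were searched on both strands. The first was the TATA element, searched for with the letters TATAAA. The CCAAT box was searched for as named. The GC box, which factors of the SP family are known to bind, was searched for with the letters GGGCGG. The core of sites for ETS factors, which are abundant in lymphocytes, had the letters CCGGAAG. The NRF1 core was GCATGCGC, a palindrome searched for beside it was CTCGCGAG, and the Kaiso consensus was TCCTGCNA, where N is any base. Overlapping matches were counted separately.
Zbtb4: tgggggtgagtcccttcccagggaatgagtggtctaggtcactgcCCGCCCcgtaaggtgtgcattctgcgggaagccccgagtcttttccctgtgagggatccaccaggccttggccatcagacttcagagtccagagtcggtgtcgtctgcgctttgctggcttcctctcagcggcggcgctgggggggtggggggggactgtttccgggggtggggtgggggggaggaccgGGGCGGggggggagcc
Zbtb17: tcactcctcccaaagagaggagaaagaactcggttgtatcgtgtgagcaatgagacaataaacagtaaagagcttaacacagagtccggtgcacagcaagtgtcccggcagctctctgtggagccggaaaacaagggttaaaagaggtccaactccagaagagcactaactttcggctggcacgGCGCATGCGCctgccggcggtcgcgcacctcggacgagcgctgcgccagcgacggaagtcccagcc
Zbtb33: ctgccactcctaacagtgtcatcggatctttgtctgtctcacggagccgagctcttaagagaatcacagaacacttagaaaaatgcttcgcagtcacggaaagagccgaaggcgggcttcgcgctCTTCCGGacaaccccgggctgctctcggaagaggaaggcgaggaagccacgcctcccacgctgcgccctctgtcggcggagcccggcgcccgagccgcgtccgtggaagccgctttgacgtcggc
Zbtb32: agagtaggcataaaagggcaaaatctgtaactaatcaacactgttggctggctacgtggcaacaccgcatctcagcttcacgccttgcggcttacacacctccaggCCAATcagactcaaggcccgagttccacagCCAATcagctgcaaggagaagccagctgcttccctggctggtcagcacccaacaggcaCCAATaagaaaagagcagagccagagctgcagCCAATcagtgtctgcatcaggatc
Zbtb9: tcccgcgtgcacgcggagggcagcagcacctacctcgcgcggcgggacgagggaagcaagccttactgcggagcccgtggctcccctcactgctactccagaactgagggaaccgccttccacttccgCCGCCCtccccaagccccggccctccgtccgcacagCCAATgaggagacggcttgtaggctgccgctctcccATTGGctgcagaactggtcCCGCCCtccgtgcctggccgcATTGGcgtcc

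The Zbtb4 window lies at chr11:69765662-69765911 on the plus strand, with 13 CpG and 2 GC boxes. The Zbtb17 window (chr4:141444423-141444672, plus strand) has 19 CpG, and its capitals are 2 overlapping matches to the NRF1 core, 1 on each strand. The Zbtb33 window (chrX:38189543-38189792, plus strand) has 27 CpG and 1 ETS core. Its product, Kaiso, is the factor for which the consensus TCCTGCNA was described, and those letters are not in its own window. The Zbtb32 window (chr7:30598910-30599159, minus strand) has 5 CpG, the fewest of the 28, and 4 CCAAT boxes, a number reached or passed by 1.07% of all windows in the table. The Zbtb9 window (chr17:26972929-26973178, plus strand) has 23 CpG, 3 CCAAT boxes and 2 GC boxes.

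The windows of the ZBTB genes, not all of them wholly upstream of the gene as deposited, were rich in CpG. Their median was 23 CpG and a GC content of 66.8%, against 10 CpG and 55.6% over the 17138 windows chosen in the same way for all genes. Those 17138 windows were not limited to expressed genes, whereas 25 of the 28 ZBTB windows belong to genes at 1 TPM or more in each library. A comparison with windows of expressed genes alone was not made. Among the ZBTB genes, the 25 that reached at least 1 TPM in each library had a median of 25 CpG, between 8 and 47, and of those that did not, Zbtb32 had 5 and Zbtb8b 10. Zbtb9, whose level cannot be read from its counts, had 23. The GC box was found before 19 of 28 ZBTB genes (67.9%, against 43.6% of all windows), the ETS core before 7 (25%, against 9.45%) and the NRF1 core before 4 (14.3%, against 3.17%), which were Zbtb14, Zbtb17, Zbtb41 and Zbtb43. The CCAAT box was about as frequent before ZBTB genes as elsewhere (39.3%, against 35.6%). The TATA element stood before Zbtb43 only (3.57%, against 10.8%), the Kaiso consensus before Zbtb37 only (3.57%, against 4.14%) and the palindrome before none of the 28 (against 1.07%). No test was made of these shares, since a window with more G and C holds such letters more often, and a match is not a binding site.

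Most ZBTB genes were expressed in these T cells, at a middle level. Levels are given in TPM, counts divided by the gene's exon length and scaled to a fixed total per library, as mean ± SD over the 3 libraries. A total of 32 of the 37 genes (86.5%) reached at least 1 TPM in each library, against 46.1% of protein-coding genes and 23.4% of all genes. The share was 71.1% of the 415 genes named Zfp and a number, most of which are zinc finger genes, and 58.3% of the 36 Klhl genes, which encode BTB proteins with kelch repeats in place of zinc fingers. The median level over all 37 ZBTB genes was 20.8 TPM, against 8.52 TPM for the Zfp genes and 9.23 TPM for the Klhl genes. Among genes that reached the threshold, the median was 23.7 TPM for ZBTB, 15.5 TPM for Zfp, 23.7 TPM for Klhl and 33.4 TPM for protein-coding genes. A larger share of ZBTB genes than of these sets thus passed the threshold, while among the genes that passed the ZBTB median was close to that of Klhl and below that of protein-coding genes. In bulk RNA, fewer cells of a type and less RNA per cell cannot be told apart, so no ZBTB level could be assigned to a share of the cells.

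**Figure D1:**
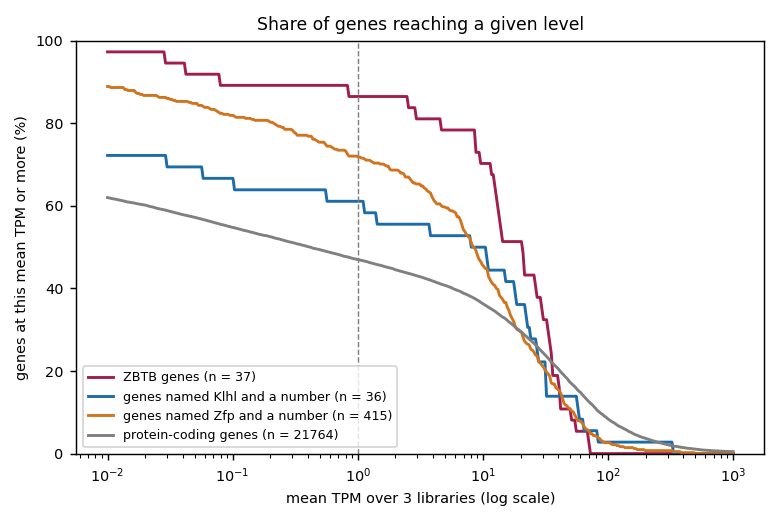
Share of genes (vertical axis, percent) at or above a mean TPM over the 3 libraries (horizontal axis, log scale) for ZBTB, Klhl, Zfp and all protein-coding genes, with the dashed line at 1 TPM. The ZBTB curve stays highest at 1 TPM, where the protein-coding curve lies lowest.

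Together the 37 genes summed to 844 ± 11.04 TPM, of which Zbtb22, Zbtb4, Zbtb17 and Zbtb48 held 29.0%. These 4 had means of 50 TPM or more, 15 lay between 20 and 50 TPM, 7 between 10 and 20, 6 between 1 and 10, and 5 below 1 TPM. Among the 32 genes past the threshold the highest mean was 28.2 times the lowest. Their spread between libraries was mostly small: the coefficient of variation of TPM was under 10% in 27 of the 32, with a median of 4.97%, and ran between 0.825% in Zbtb45 and 17.8% in Zbtb3.

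**Figure D2:**
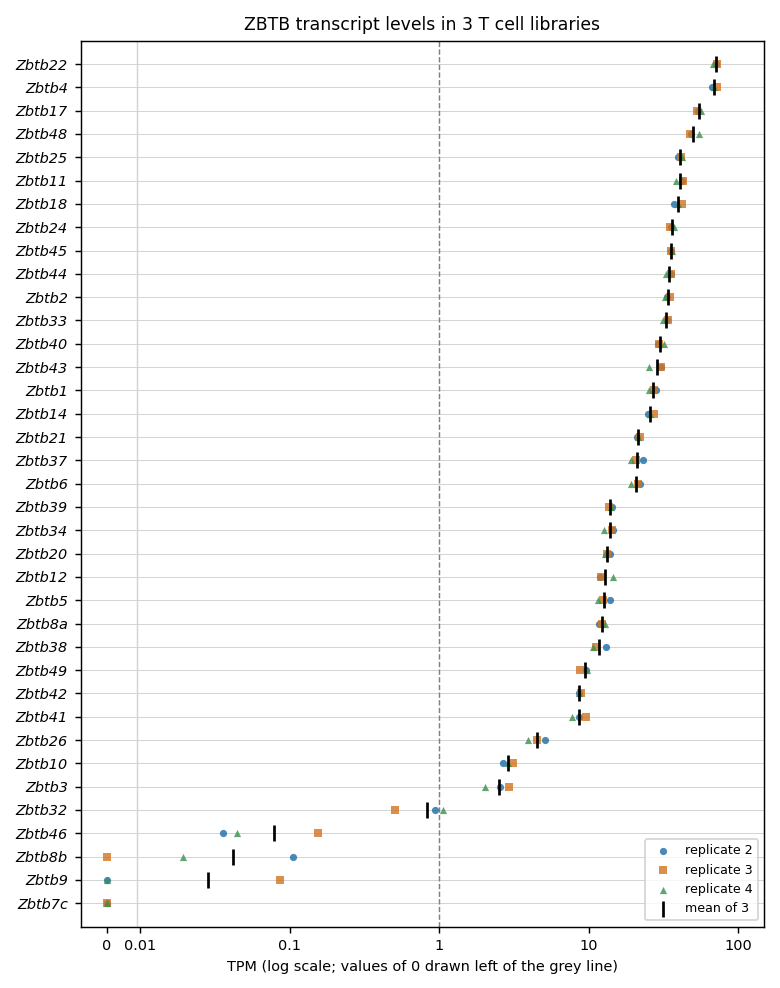
TPM of the 37 ZBTB genes (rows, in order of mean) in replicates 2, 3 and 4 (coloured marks) with their mean (bar), on a log axis where values of 0 are drawn left of the grey line. The marks of a gene lie close together down to Zbtb3 at 2.51 TPM and spread out among the 5 genes below 1 TPM.

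The methyl-CpG binding members stood at unequal levels. Zbtb4 (ENSMUSG00000018750.14, mm10 chromosome 11, 69765912 to 69784023, plus strand), whose product binds methylated CpG through its zinc fingers, had 66.7, 72.2 and 69.3 TPM in replicates 2, 3 and 4, a mean of 69.4 ± 2.75 TPM (SD, n = 3). Zbtb33 (ENSMUSG00000048047.3, chromosome X, 38189793 to 38197046, plus strand), the Kaiso gene, had 33.7, 34.2 and 31.6 TPM, a mean of 33.2 ± 1.36 TPM. Zbtb38 (ENSMUSG00000040433.16, chromosome 9, 96682770 to 96752831, minus strand), which encodes the other factor of this kind, had 13.1, 11.2 and 10.6 TPM, a mean of 11.7 ± 1.31 TPM. In each library Zbtb4 was above Zbtb33 and Zbtb33 above Zbtb38, with no overlap of their ranges. Zbtb2, whose product was found in mouse embryonic stem cells to bind unmethylated CpG, had 33.6, 35.2 and 32.5 TPM, a range that overlaps that of Zbtb33. The place of Zbtb2 depended on the length by which counts were divided. With each gene's longest transcript as length, the mean of Zbtb2 was 55.6 TPM, against 51.9 TPM for Zbtb4, 23.9 TPM for Zbtb33 and 13.3 TPM for Zbtb38. Of the reported partners, Ctnnd1, the gene of p120 catenin with which Kaiso was isolated, had 0 counts in all libraries. Exons shared with another gene, which can remove counts as described below for Zbtb9, were not examined for Ctnnd1. Its absence from the cells was therefore not shown.

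Zbtb33 was the only ZBTB gene on a sex chromosome. The libraries differed in sex-linked transcripts: Xist, the RNA of X inactivation, was high in replicate 2 alone (151, 0.221 and 0.399 TPM in replicates 2, 3 and 4), and the Y-linked Ddx3y was low there (0.248, 79.96 and 72.3 TPM). Zbtb33 in replicate 2, at 33.7 TPM, lay between its values in the other libraries, and its log2 range was 0.08.

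Zbtb17 and the genes around it formed the next group. Zbtb17 (ENSMUSG00000006215.12, chromosome 4, 141444654 to 141467930, plus strand) encodes MIZ1, a partner through which MYC represses genes and a factor needed for early lymphoid development in mice. It had 54.2, 52.9 and 56.6 TPM, a mean of 54.6 ± 1.87 TPM. Its partner genes were higher, with Myc at 149 ± 2.82 TPM and Max at 143 ± 6.56 TPM. Of the reported MIZ1 targets, Socs1, a brake on cytokine signalling, stood at 76.7 ± 1.43 TPM, the cell cycle inhibitor genes Cdkn1a at 1.599 ± 0.332 TPM and Cdkn1c at 1.70 ± 0.659 TPM, and Cdkn2b had 0 counts. In all, 5 of these 6 genes reached at least 1 TPM in each library.

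Other members are known to act on Myc itself, on the p21 gene or on SP factors. Zbtb14, whose product ZF5 was found as a repressor of the Myc promoter in the mouse, had a mean of 25.9 ± 1.17 TPM. Zbtb5 and Zbtb49, which act on the p21 gene (Cdkn1a in the mouse) in human cells, had means of 12.7 ± 1.24 and 9.39 ± 0.488 TPM. Zbtb10, known in human cells as a repressor of SP factors, was low, at 2.67, 3.11 and 2.89 TPM.

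Zbtb1 (ENSMUSG00000033454.6, chromosome 12, 76370266 to 76396950, plus strand), without which mice fail to make T cells, had 28.1, 27.5 and 25.5 TPM, a mean of 27.0 ± 1.34 TPM. Its neighbour Zbtb25 (ENSMUSG00000056459.14, chromosome 12, 76347782 to 76369602, minus strand), known in human T cells as a repressor of NFAT targets, had 39.5, 41.7 and 42.3 TPM, a mean of 41.2 ± 1.49 TPM. They lie head to head with 664 bases between their starts, and Zbtb25 was above Zbtb1 in every library. Zbtb20, a regulator in liver, hippocampus and plasma cells, had 13.8, 13.3 and 12.95 TPM over 30730 exon bases, the largest exon total of the set. Asns, a reported target of Zbtb1, was at 0.298 ± 0.141 TPM.

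Zbtb24 (ENSMUSG00000019826.11, chromosome 10, 41450383 to 41465574, plus strand), mutated in the human ICF syndrome of immunodeficiency and unstable centromeres, had 35.6, 35.1 and 37.1 TPM, a mean of 35.9 ± 1.00 TPM. The other genes of that syndrome were lower: Cdca7, which Zbtb24 activates, was at 13.02 ± 0.252 TPM, the DNA methyltransferase gene Dnmt3b at 10.2 ± 1.21 TPM and the remodeller gene Hells at 3.32 ± 0.0863 TPM. All 3 reached at least 1 TPM in each library, and Zbtb24 was above each of them in every library.

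Among the genes of highest level were also members with other or unsure roles. Zbtb22 (ENSMUSG00000051390.9, chromosome 17, 33915904 to 33919324, plus strand) had the highest mean, with 71.4, 72.6 and 68.4 TPM in replicates 2, 3 and 4 (70.8 ± 2.18 TPM), over 2672 exon bases. Zbtb48 (ENSMUSG00000028952.12, chromosome 4, 152019774 to 152027671, minus strand), known in human cells as the telomere protein TZAP, had 48.3, 47.4 and 54.4 TPM (50.03 ± 3.83 TPM). Replicate 4 was the highest for Zbtb48 and the lowest for Zbtb22, so that no library stood above the others in both. Zbtb11, needed for neutrophil development in zebrafish, had 42.5, 42.7 and 38.1 TPM, and Zbtb18, a repressor best known from cortical neurons as RP58, had 37.3, 42.2 and 39.8 TPM. Their ranges overlap each other and that of Zbtb25. Zbtb45 had 35.8, 35.6 and 36.2 TPM, the narrowest relative spread of the set, and Zbtb44 had 35.5, 35.4 and 32.9 TPM.

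The rest are given by their means. Zbtb40 was at 30.1 ± 1.503 TPM, Zbtb43 at 28.8 ± 2.86 TPM, Zbtb21 at 21.5 ± 0.590 TPM, Zbtb37 at 21.05 ± 2.05 TPM and Zbtb6 at 20.8 ± 1.53 TPM. Below these came Zbtb39 at 14.0 ± 0.287 TPM, Zbtb34 at 13.8 ± 1.07 TPM, Zbtb12 at 12.9 ± 1.41 TPM and Zbtb8a at 12.2 ± 0.547 TPM. Under 10 TPM stood Zbtb42 at 8.69 ± 0.151 TPM, Zbtb41 at 8.65 ± 0.881 TPM, Zbtb26 at 4.54 ± 0.585 TPM and Zbtb3 at 2.51 ± 0.447 TPM.

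The order of these levels was clear only in steps. Of the 35 neighbouring pairs among the 36 genes with any count, 11 had ranges over the libraries that did not overlap, and leaving out replicate 4 raised that number to 18. The steps among genes past the threshold were largest between Zbtb41 and Zbtb26, by 1.90 times, between Zbtb26 and Zbtb10, by 1.57 times, and between Zbtb6 and Zbtb39, by 1.49 times. Zbtb22 and Zbtb4 at the top overlapped, and Zbtb4 stood apart from Zbtb17 by 1.27 times. The order also rested on the length by which counts were divided. With the longest transcript of each gene in GENCODE M21 in place of all its exons, Zbtb17 came first at 55.9 TPM and Zbtb2 second at 55.6 TPM, against 33.8 TPM and the place 11 by summed exons, Zbtb22 came next at 52.1 TPM, against 70.8 TPM, and Zbtb49 was at 18.9 TPM, against 9.39 TPM. All TPM were rescaled with these lengths, so the 2 values of a gene are on different scales. Zbtb33, whose own length stayed at 5122 bases, was at 23.9 TPM, against 33.2 TPM. The length of Zbtb22 changed little, to 2612 from 2672 bases, so its lower value is not an effect of its own length alone. Spearman's rho between the orders of the genes by both lengths was 0.959.

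Of the 5 genes with a mean below 1 TPM, Zbtb32 had the most counts. Zbtb32 (ENSMUSG00000006310.10, chromosome 7, 30589681 to 30598909, minus strand), a repressor that binds GATA3 and is known from activated lymphocytes, had 29, 20 and 20 counts in replicates 2, 3 and 4, or 0.934, 0.510 and 1.06 TPM. Gata3 itself was at 56.4 ± 4.43 TPM. Zbtb32 was highest in replicate 4, the shallowest library, and 1 further count there is worth more TPM than in the others.

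Zbtb46 (ENSMUSG00000027583.13, chromosome 2, 181387762 to 181459426, minus strand), a marker of classical dendritic cells, had 4, 22 and 3 counts, so that replicate 3 held most of them. The level was 0.155 TPM there, against 0.0357 and 0.0442 TPM in replicates 2 and 4. Dendritic cell genes were near 0 throughout: none of 6 reached at least 1 TPM in each library, Xcr1 and Clec9a had 0 counts, and the 6 summed to 0.512, 0.465 and 1.33 TPM in replicates 2, 3 and 4, highest in replicate 4. Csf1r, a macrophage gene, had 6, 39 and 13 counts and was also highest in replicate 3, while the 5 macrophage genes summed to 15.1, 15.9 and 15.9 TPM, and Cd68 at 13.3 TPM made up most of that. The part of other cells in the Zbtb46 counts was not tested.

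Zbtb8b had 9, 0 and 1 counts, and Zbtb9 had 0, 4 and 0. Zbtb7c, known as Kr-pok, had 0 counts in all libraries, where 3 pooled counts would amount to 0.0168 TPM, and such limits cover counting error only. The counts of Zbtb9 (ENSMUSG00000079605.4, chromosome 17, 26973167 to 26976205, plus strand) cannot be read as its level. Of its 2798 exon bases, 2748 (98.2%) are also exon of Ggnbp1 on the same strand, and read pairs that lie in exons of both genes are assigned to neither in the counting. Ggnbp1 itself had 289, 309 and 161 counts. Its 2.91 ± 0.244 TPM may understate its level, since 2748 of its 6943 exon bases are the shared ones.

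**Figure D3:**
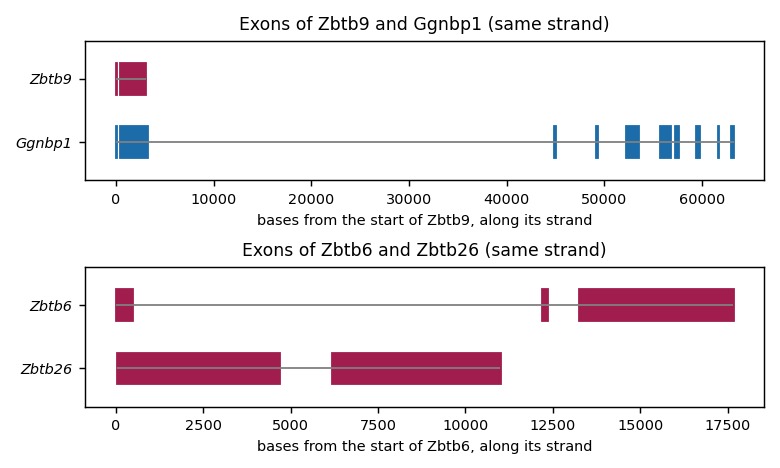
Exons (boxes) of Zbtb9 and Ggnbp1, and of Zbtb6 and Zbtb26, against the distance in bases from the start of the first gene along its strand. The exons of Zbtb9 lie almost wholly within those of Ggnbp1, while Zbtb6 and Zbtb26 share 449 bases.

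Shared exons touched 5 further ZBTB genes, to a smaller extent. Zbtb6 and Zbtb26 on chromosome 2 begin 36 bases apart on the same strand and share 449 exon bases, 8.84% of Zbtb6 and 4.73% of Zbtb26, and Zbtb6, at 21.9, 21.5 and 19.1 TPM in replicates 2, 3 and 4, was above Zbtb26, at 5.12, 4.55 and 3.95 TPM. Both were lowest in replicate 4. Zbtb22 shares 2.28% of its exon bases with Tapbp, Zbtb11 shares 1.71% with Gm28037 and Zbtb20 shares 0.27% with Mir568. Same-strand sharing was present in 6 of 37 ZBTB genes (16.2%), against 6.9% of protein-coding genes, and it reached 90% of exon bases in 1 of 37 (2.7%), against 0.703%. On the opposite strand, which the stranded counting keeps apart, the widest overlaps by share of exon bases were those of Zbtb37 with Serpinc1 (15.6%), of Zbtb5 with 1700055D18Rik (12.95%) and of Zbtb8a with Zbtb8os (11.4%). Zbtb8os, at 12.7 ± 0.839 TPM, stood close to Zbtb8a, at 12.2 ± 0.547 TPM, and the ranges overlap. Zbtb11os1, which begins inside Zbtb11 on the other strand, was at 13.2 ± 1.65 TPM, below Zbtb11 in every library.

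No ZBTB gene was called as varying among the libraries beyond genes of its abundance. edgeR's goodness of fit of a single mean with a trended dispersion, adjusted by Benjamini-Hochberg over the 13498 genes that averaged at least 10 counts, called 0 of the 33 ZBTB genes tested at 0.05, and 72 genes (0.533%) in all. None of the 33 had an unadjusted p under 0.05, which 4.10% of all tested genes had. The smallest, for Zbtb38, was 0.259 (edgeR, adjusted p = 1). Zbtb46, Zbtb8b, Zbtb9 and Zbtb7c were too low to be tested. At a background of 0.533%, a count of 0 among 33 genes is what the share over all genes would give. The test can also miss changes. On simulated counts it recovered 25.9% of the genes changed 1.5-fold in 1 library and 73.4% of those changed 2-fold. The changed genes were drawn at random from all tested genes, whatever their counts. These shares are therefore not rates for the ZBTB genes.

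The spread between the highest and lowest library, in TMM-scaled log2 CPM, had a median of 0.15 over the 33 ZBTB genes, against 0.16 over tested protein-coding genes and 0.19 over all tested genes. It was under 0.30 in 29 of the 33. The widest were those of Zbtb32, with a range of 1.00 at 20 to 29 counts, and Zbtb3, with a range of 0.48 at 69, 99 and 33 counts in replicates 2, 3 and 4, both among the 3 tested ZBTB genes of lowest mean level. Zbtb12 followed with 0.33 (11.99, 12.2 and 14.5 TPM, highest in replicate 4), Zbtb26 with 0.32 (lowest in replicate 4) and Zbtb41 with 0.26 (8.60, 9.55 and 7.79 TPM, highest in replicate 3). The direction thus differed from gene to gene.

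**Figure D4:**
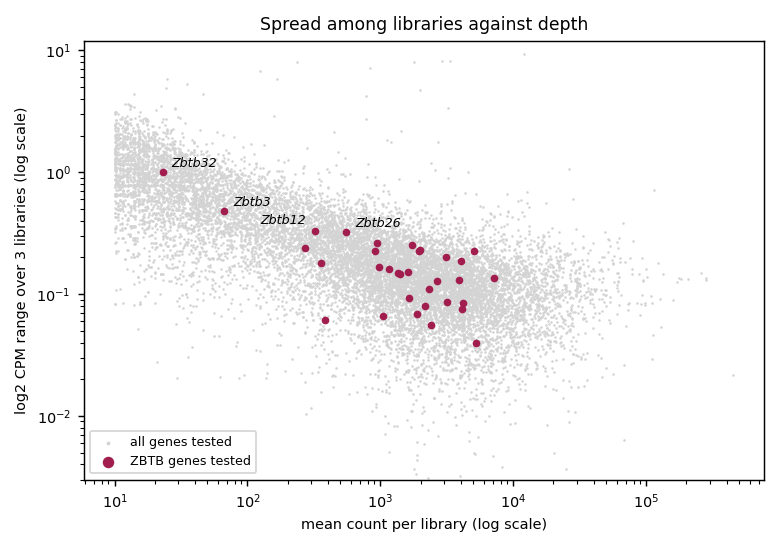
Range of TMM-scaled log2 CPM over the 3 libraries (vertical axis, log scale) against the mean count per library (horizontal axis, log scale) for all 13498 tested genes (grey) and the 33 tested ZBTB genes (red). The ZBTB genes lie inside the grey cloud, and Zbtb32 and Zbtb3 at the low counts have the widest ranges.

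No library stood highest for most of the ZBTB genes. Replicate 2 was the highest for 8 of the 33, replicate 3 for 14 and replicate 4 for 11, against 33.9%, 30.6% and 35.5% of all tested genes. The lowest value fell in replicate 4 in 15 ZBTB genes (45.5%, against 35.9% of all tested genes), in replicate 2 in 13 (39.4%, against 33.6%) and in replicate 3 in 5 (15.2%, against 30.5%). The median difference in log2 CPM over the 33 genes was 0.03 for replicate 4 minus replicate 2, where the sign turned when libraries were scaled by total counts only (-0.00558), 0.02 for replicate 3 minus replicate 2 and -0.05 for replicate 4 minus replicate 3. Over all tested genes each of these medians was within 0.01 of 0. Of 6 immediate early genes, 4 passed the test, Fos, Jun, Junb and Dusp1, all highest in replicate 4, with Fos at 122 TPM there, against 30.8 and 27.2 TPM in replicates 2 and 3 (edgeR's goodness of fit, Benjamini-Hochberg adjusted p = 2.32e-48). The other 2 did not pass (adjusted p = 1 each): Ier2 was highest in replicate 4 and Egr1 in replicate 3.

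**Figure D5:**
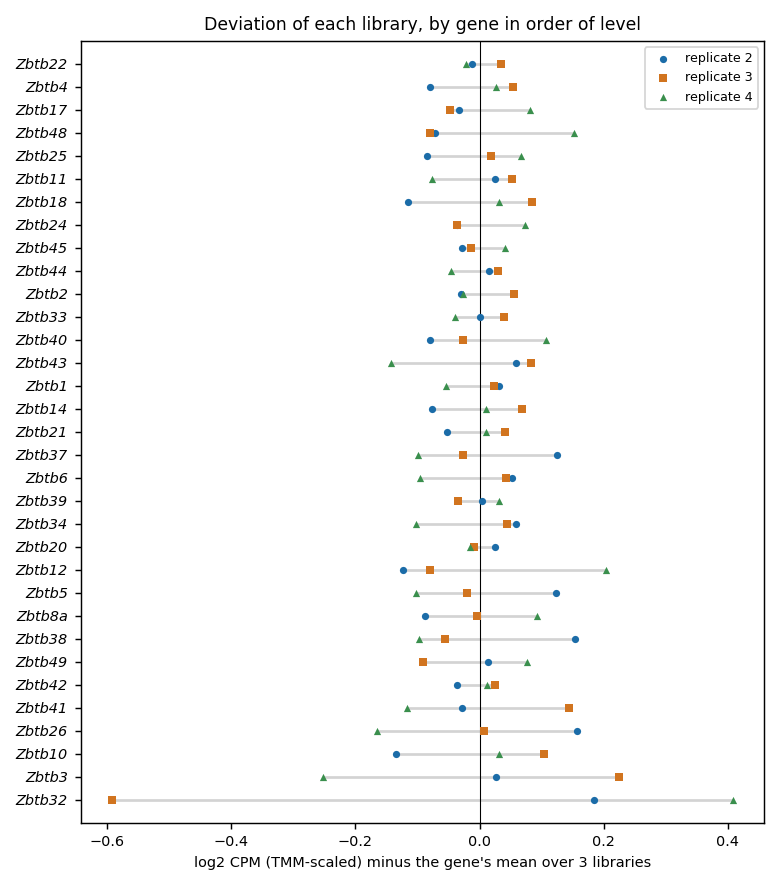
Deviation of each library from the gene's mean in TMM-scaled log2 CPM (horizontal axis) for the 33 tested ZBTB genes (rows, in order of level), with replicates 2, 3 and 4 as coloured marks. Most marks lie close to 0, no colour stays on one side, and Zbtb32 and Zbtb3 are the widest.

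Most BTB zinc finger genes that carry other symbols were expressed too. Of 8, 7 reached at least 1 TPM in each library, led by Patz1, a regulator of thymocyte development, at 63.6 ± 4.39 TPM, Zfp131 at 62.0 ± 3.63 TPM and Mynn at 19.8 ± 0.777 TPM, with a median of 18.5 TPM over the 8. Bcl6b was the exception at 0.0385 TPM. Genes of the corepressors and of the ubiquitin ligase that BTB domains engage were higher. Of 13, 12 reached at least 1 TPM in each library and the median was 99.1 TPM, against 20.8 TPM for the ZBTB genes. The highest were Gps2, a subunit of the NCOR complex, at 285 ± 17.8 TPM, the corepressor gene Ctbp1 at 222 ± 8.82 TPM and Ncor1 at 183 ± 6.66 TPM. Cul3, the cullin gene, was at 108 ± 4.05 TPM. The exception was Ctbp2, with 0, 1 and 3 counts, for which exons shared with another gene were not examined. None of the genes of these lists, nor of the ICF, MIZ1 and partner lists, passed the test among the 28 that could be tested.

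The libraries matched their label as T cells. All 7 T cell genes (Cd3e, Cd3d, Cd3g, Cd4, Trac, Cd28 and Lck) reached at least 1 TPM in each library, with a median of 776 TPM. The 6 B cell genes also did, at a median of 6.799 TPM, and summed to 48.1, 53.9 and 37.7 TPM in replicates 2, 3 and 4. Of the 5 NK cell genes, 3 did, with Klrd1 at 29.4 ± 0.900 TPM, Gzma at 5.73 TPM and Eomes at 4.50 TPM. Ncr1 at 0.842 TPM and Klrb1c at 0.607 TPM did not.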

How the data were processed

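RNA of 3 libraries of 1 group was analysed. Per the file headers, the authors counted read pairs per gene with featureCounts 1.4.6-p4 against GENCODE vM13, over exons grouped by gene, on the reverse strand, with both ends aligned. No option for reads at several places or in several genes was set. The version of the aligner is not given in the sources used here. Deposited counts were used unchanged. Symbols (50376 of 50600 genes) and GENCODE M21 biotypes were matched by Ensembl identifier.

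TPM were computed here from counts and the deposited exon lengths, which merge all transcripts. Variation among libraries was tested by goodness of fit in edgeR 4.0.16 (R 4.3.3), with 1 mean per gene, TMM scaling, a trended dispersion and a minimum mean count of 10, adjusted by Benjamini-Hochberg at 0.05, after a check on simulated data. Log2 CPM used a prior count of 2. TMM factors were between 0.988 and 1.01. Detection meant 1 TPM in each library. Python 3.11.15, pandas 2.3.3, scipy 1.17.1 and matplotlib 3.10.9 were used.

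All members are named, with values in every library for the 12 of highest level, the 5 of largest range, those on a sex chromosome, those below 1 TPM and those beside another member within 10 kb. Other genes named are the 3 highest of the lists of other BTB zinc finger, corepressor, ICF, MIZ1 and partner genes. Other list genes, the marker, sex-linked and immediate early genes, genes sharing exons, the values of Zbtb10, Zbtb20 and Zbtb38 by library, and the rule for matching promoter windows were chosen after values were seen. The members and lists were chosen with earlier results of these data known. Protein sequences were not used here. Alternatives were other thresholds, scalings, count minimums, prior counts, lengths, a common dispersion and each replicate left out.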

Additional observations from a re-analysis of the deposited data

How the results depend on the processing

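The number of ZBTB genes past the threshold was 33 at 0.5 TPM, 32 at 2 TPM, 29 at 5 TPM and 33 with Zbtb8os counted, and it was 32 with each replicate left out. Goodness of fit called 0 ZBTB genes under every alternative run, including a common dispersion, which called 312 genes in all, and with each replicate left out, which called between 35 and 46. At a mean count of 1 or more, Zbtb8b had an unadjusted p of 0.0284, and without replicate 4 Zbtb46 had 0.0241 (edgeR, adjusted p of 0.891 and 1). The median level was 23.7 TPM over the genes past the threshold alone, 17.4 TPM with Zbtb8os counted and 15.2 TPM with the longest transcript as length, an alternative added after seeing the data. The value by longest transcript is on another scale, because that length was used for every gene and all TPM were rescaled. The number of neighbouring pairs with separate ranges was between 13 and 18 when 1 replicate was left out, against 11, since a range over fewer libraries is narrower or equal. The median difference of replicate 4 minus replicate 2 was -0.00558 with total counts only. No paired analysis was possible because the libraries form 1 group. Depth limits Zbtb32, Zbtb46, Zbtb8b and Zbtb7c, at 69 pooled counts or fewer, while Zbtb9 is limited by shared exons.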
